A study of Homo sapiens with 8 samples.

Results

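Epithelial cells are held together by junctions, and cells that leave an epithelium lose them and take up genes of connective tissue, a change known as epithelial to mesenchymal transition. The 10 genes described here stand for both sides of it. The junction genes are CDH1, CTNNA1, TJP1, OCLN, CLDN4 and CLDN7, and the transition genes are VIM, ZEB1, SNAI2 and FN1. Members were taken as every probe set annotated to a single one of these genes, by its current or an older symbol, which gave 30 probe sets of 10 genes among 41091 probe sets of 19752 genes with a single symbol. Of the 30 probe sets, 16 belong to the 6 junction genes and 14 to the 4 transition genes.

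DLD-1, an established cell line of human colorectal adenocarcinoma, was transfected with 50 nM of a duplex that mimics mature miR-143 (4 cultures) or mock transfected with the same lipid reagent and no duplex (4 cultures). All 8 cultures were grown in the same medium, and RNA was taken 24 h after transfection. A single line was used, the arrays hold no sample with a scrambled duplex, and the comparison is therefore of duplex with no duplex. Each culture was measured on its own Affymetrix array, and a value is a log2 RMA value, so a difference of 1 is a 2-fold difference in signal.

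In the adherens junction, E-cadherin (CDH1) binds its like on the neighbouring cell, and alpha-catenin (CTNNA1) links the cadherin complex to actin. In the tight junction, claudins and occludin cross the membrane and seal the space between cells, and ZO-1 (TJP1) is the scaffold beneath them. ZEB1 and SNAI2 (Slug) are repressors known to silence CDH1 through E-box motifs in DNA, while vimentin (VIM) and fibronectin (FN1) are an intermediate filament and a matrix protein of mesenchymal cells. MicroRNAs pair through their seed, bases 2 to 8, with their target messages and lower them.

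The arms of human miR-143 are shown because the duplex is said to mimic the mature miR-143 duplex. The sequences of its own strands were not used here. Both arms were read from RefSeq on GRCh38.p14, plus strand, with the seed in capitals, the 3p arm at chr5:149428978-149428998 and the 5p arm at chr5:149428944-149428965.
hsa-miR-143-3p: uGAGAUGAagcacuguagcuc
hsa-miR-143-5p: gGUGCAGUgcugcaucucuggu

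Whole-array facts that touch these genes are few. Array medians lay between 7.15 and 7.24. On the first principal component the arrays of replicate 4 scored 25.7 (miR-143) and 26.7 (mock), while the scores of the remaining 6 arrays ran from −18.8 to −4.25. As a guide to what a silent gene reads on this array, 32 probe sets of 15 off-lineage genes, which belong to other tissues or cell types, such as insulin and cardiac myosin, had mock means between 6.24 and 7.87, with a median of 7.11 and a 90th percentile of 7.47. The off-lineage genes are called silent genes below for the tissues they belong to, and whether DLD-1 cells lack their messages was not tested. Probe sets differ in how well they bind, so a level inside this range does not show absence, and levels of different genes were not compared as amounts. Colon epithelial markers were present, with 7 of 10 above that range (EPCAM, KRT8, KRT18, KRT19, KRT20, CDH17 and CDX2) and CDX1, VIL1 and LGALS4 within it. None of 6 fibroblast, 5 endothelial or 4 measured leukocyte markers rose above it, with mock means of 6.40 to 7.56, 6.70 to 7.66 and 6.82 to 7.35. The leukocyte markers PTPRC, CD3E and MPO and the endothelial marker CDH5 are also among the off-lineage genes that set the range. They could therefore not rise above it, and of the measured leukocyte markers CD14 alone was free to. The summed level of the colon markers was 102.0 to 105.9 over the mock arrays and 100.7 to 105.9 over the miR-143 arrays. All 10 colon markers had a negative log2 fold change, against 55.6% of all genes, with a median of −0.035, and 0 were called. The median was 0.008 without mock replicate 4 and −0.045 without both arrays of replicate 4. VIL1 alone had every miR-143 array below every mock array, at −0.10 (adjusted p = 1 by limma), an order that 1.24% of all genes had. Its probe set averaged 7.65 in mock, inside the range of the off-lineage genes, and the mean over its 4 probe sets gave −0.0. By their brightest probe sets the 6 junction genes below also had negative values, and none was called. For CTNNA1 and CLDN7 the sign turned when single arrays were left out, and the probe sets of CLDN4 went opposite ways. The part of a shift like that of the markers in the values of the junction genes was not tested. In bulk RNA, fewer cells that make a message and less of it per cell cannot be told apart.

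Mock-transfected DLD-1 cells showed clear signals for 5 of the 6 junction genes, while the 4 transition genes and CLDN4 lay in or next to the range of the silent genes. Of the 16 junction probe sets 11 had a mock mean above the highest silent probe set, and of the 14 transition probe sets 1 did. The brightest probe set of CDH1 read 12.91, 12.79, 12.84 and 13.23 in mock replicates 1 to 4, brighter than 99.1% of all probe sets on the array. A second CDH1 probe set averaged only 7.44 ± 0.19 (SD, n = 4), so probe sets of the same gene can differ by over 5 log2 units.

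CTNNA1 had 5 probe sets with mock means of 11.88, 10.68, 10.13, 8.20 and 7.28. The names of those at 11.88 and 10.68 end in _x_at, which on this platform marks probes that can also match other transcripts. TJP1 had 2, at 11.98 ± 0.27 and 8.74 ± 0.22 (SD, n = 4), both above the silent range. OCLN had 4, at 10.63, 8.46, 8.27 and 7.50, of which 3 lay above it. CLDN7 had a single probe set, at 9.98 ± 0.22 (SD, n = 4). CLDN4 differed from the other junction genes, since its 2 probe sets lay at 7.73 ± 0.11 and 7.22 ± 0.23 (SD, n = 4), both inside the range of the silent genes.

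Among the transition genes, SNAI2 read 6.65, 6.67, 6.44 and 6.50 in the 4 mock arrays, at percentile 10.0 of all probe sets. The 4 probe sets of ZEB1 had mock means of 6.83, 6.79, 6.57 and 6.44. VIM was at 7.28 and 6.49, below the 90th percentile of the silent genes in both probe sets. FN1 had 7 probe sets from 6.44 to 7.96, and the brightest alone passed the highest silent probe set, at 7.87. Its name also ends in _x_at, so its probes can match other transcripts too.

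**Figure D1:**
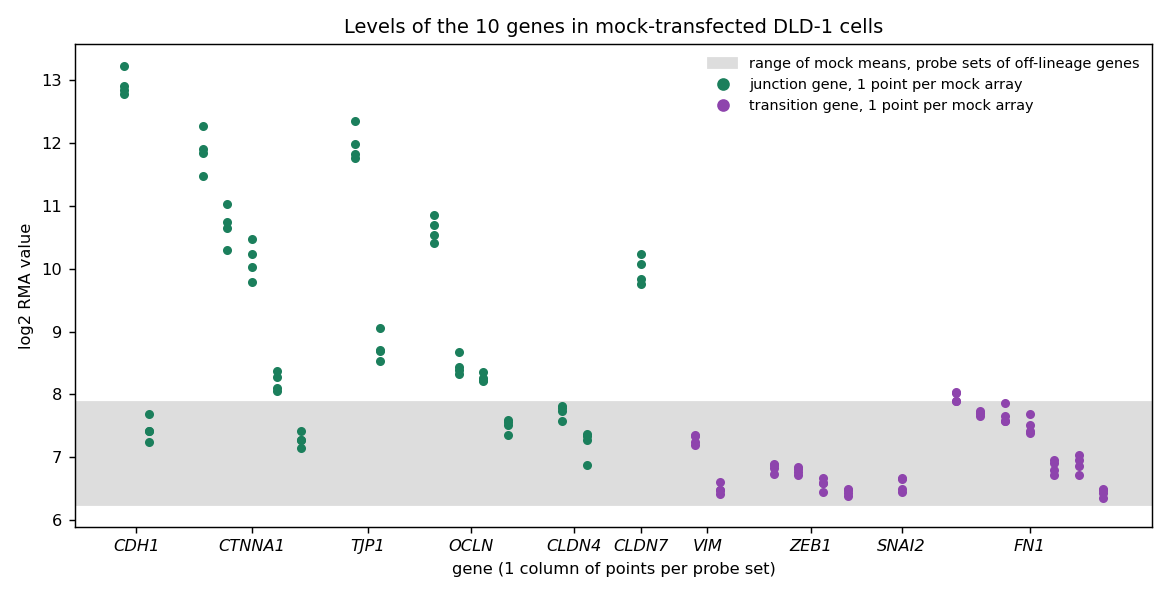
Log2 RMA values of the 30 probe sets on the 4 mock arrays, in one column of points per probe set, with junction genes in green, transition genes in purple and the range of mock means of the 32 off-lineage probe sets in grey (6.24 to 7.87). CDH1, CTNNA1, TJP1, OCLN and CLDN7 have probe sets far above the grey band, and CLDN4, VIM, ZEB1 and SNAI2 lie inside it.

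Levels with miR-143 were close to those in mock for all 10 genes, and no gene passed the test. Each gene was represented by its probe set of highest mean and compared by limma with all 8 arrays and no block. At an adjusted p of 0.05, 0 of 10 members were called, where 0.0% of all 19752 genes were called, and at an unadjusted p under 0.05 there were 0 of 10 against 2.41% of all genes. Over probe sets 0 of 30 were at an unadjusted p under 0.05, against 2.57% of all, and 0 of 30 were called, against 0.00243% of all 41091, a single probe set, which belongs to OIP5-AS1. On all 30 probe sets the arrays of the groups overlapped, as they did on all but 1.25% (miR-143 lower throughout) and 0.781% (higher throughout) of probe sets, and 1.24% of genes had every miR-143 array below every mock array. The smallest p that an exact permutation of 4 against 4 arrays allows is 0.0286, and no member reached it.

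CDH1 had the lowest p-value of the 10. It read 12.73, 12.72, 12.58 and 12.96 with miR-143, each below the mock array of the same number, while miR-143 replicate 4 lay above mock replicates 1 to 3. Its log2 fold change was −0.19 (standard error 0.110, 95% interval −0.44 to 0.05, p = 0.108 and adjusted p = 1 by limma), and the exact permutation p was 0.171, two-sided. The interval corresponds to 0.737 to 1.04 times the mock level. The dim CDH1 probe set had a log2 fold change of −0.03.

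TJP1 read 11.73, 11.75, 11.63 and 12.13 with miR-143 and 11.99, 11.83, 11.76 and 12.35 in mock. Replicate 4 was the highest array of each group, by more than the groups differed. The log2 fold change was −0.17 (95% interval −0.49 to 0.15, adjusted p = 1 by limma), and the second probe set had −0.07. OCLN likewise had replicate 4 highest and replicate 3 lowest in each group, at 10.47, 10.46, 10.27 and 10.76 with miR-143 against 10.69, 10.54, 10.41 and 10.86 in mock, and a log2 fold change of −0.14 (95% interval −0.41 to 0.13, adjusted p = 1 by limma). Its other 3 probe sets had values of −0.13, −0.04 and −0.03.

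CTNNA1 read 11.75, 11.62, 11.49 and 12.30 with miR-143 and 11.84, 11.91, 11.47 and 12.28 in mock. The spread between replicates was several times the difference of the means, a log2 fold change of −0.09 (95% interval −0.53 to 0.36, adjusted p = 1 by limma). All 5 of its probe sets had a negative value, from −0.13 to −0.03. CLDN7 had the widest spread of the members within the miR-143 arrays, at 10.01, 9.75, 9.46 and 10.48 with miR-143 (SD 0.432) against 9.76, 10.08, 9.84 and 10.23 in mock (SD 0.215). Arrays 2 and 3 were lower with miR-143 and arrays 1 and 4 were higher, with a log2 fold change of −0.06 (95% interval −0.50 to 0.39, adjusted p = 1 by limma).

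The 2 probe sets of CLDN4 went opposite ways. The brighter one read 7.66, 7.41, 7.35 and 7.79 with miR-143 and 7.58, 7.73, 7.82 and 7.79 in mock, a log2 fold change of −0.18 (95% interval −0.41 to 0.05, adjusted p = 1 by limma). The dimmer one had a log2 fold change of 0.15, and each miR-143 array lay above the mock array of the same number, by 0.02 to 0.28. Neither change passed the test, and both probe sets read within the range of silent genes, so no direction can be given for CLDN4.

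The transition genes had standard deviations within a group of 0.0164 to 0.137 over their 14 probe sets, while the junction genes reached 0.432 in CLDN7. ZEB1 read 6.88, 6.90, 6.93 and 6.78 with miR-143 and 6.82, 6.89, 6.88 and 6.73 in mock, higher with miR-143 within each pair, by 0.01 to 0.06, as 6.54% of all genes were. Its log2 fold change was 0.04 (95% interval −0.09 to 0.18, adjusted p = 1 by limma). SNAI2 read 6.56, 6.65, 6.61 and 6.62 with miR-143, within the mock arrays, and had a log2 fold change of 0.05 (95% interval −0.10 to 0.19, adjusted p = 1 by limma).

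VIM read 7.38, 7.31, 7.29 and 7.29 with miR-143 and 7.20, 7.35, 7.34 and 7.24 in mock, with a log2 fold change of 0.03 (95% interval −0.10 to 0.16, adjusted p = 1 by limma). FN1 read 7.95, 7.93, 7.90 and 7.91 with miR-143 and 8.02, 7.90, 7.90 and 8.04 in mock, with a log2 fold change of −0.04 (95% interval −0.17 to 0.08, adjusted p = 1 by limma). The 14 transition probe sets had log2 fold changes from −0.14 to 0.13, of which 6 were negative. No VIM, ZEB1, SNAI2 or FN1 probe set moved above the silent range with miR-143 that lay within it in mock. Because these genes read near that floor, a small change in few messages would be compressed and could be missed.

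**Figure D2:**
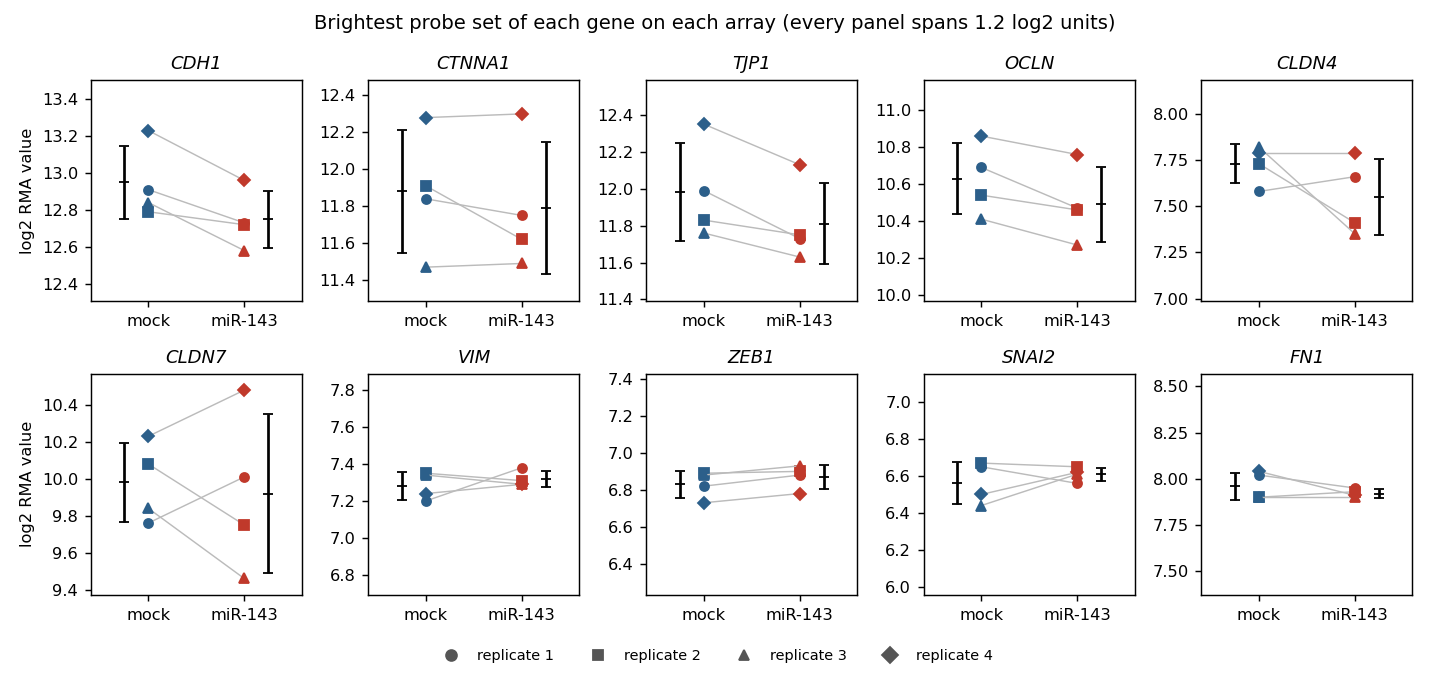
Log2 RMA value of the brightest probe set of each gene on each array, with mock in blue, miR-143 in red, grey lines joining arrays of the same replicate number, and the mean ± SD (n = 4) in black beside the points. Every panel spans the same number of log2 units. Lines fall in all 4 pairs for CDH1, TJP1 and OCLN, rise in all 4 for ZEB1, and the groups overlap in each panel.

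When the replicate number was taken as a block, 0 of 10 genes passed, against 0.79% of all genes. At an unadjusted p under 0.05 with the block, CDH1 (adjusted p = 0.175 by limma), TJP1 (adjusted p = 0.235) and OCLN (adjusted p = 0.373) were lower, 3 of 10, and none was higher. By this rule 6.92% of all genes were lower, 12.4% of the genes above the median level were lower, and 2.64% of all genes were higher. These 3 genes were also the members that lay lower in all 4 same-numbered pairs, as 10.9% of all genes and 15.4% of those above the median level did. Within pairs 1 to 4 CDH1 differed by −0.18, −0.07, −0.26 and −0.27, TJP1 by −0.26, −0.09, −0.12 and −0.22, and OCLN by −0.22, −0.09, −0.14 and −0.10. The 95% intervals with the block were −0.31 to −0.08 for CDH1, −0.29 to −0.06 for TJP1 and −0.25 to −0.03 for OCLN. Their lower ends are 0.807, 0.820 and 0.843 times the mock level. Among probe sets, 5 of 30 were lower and 1 was higher at an unadjusted p under 0.05 with the block, against 6.49% and 2.35% of all probe sets. The lower ones were the brightest of CDH1 and of TJP1, those of OCLN at 10.63 and 8.46 in mock, and a transition probe set. This last was an FN1 probe set at 6.44 in mock, inside the off-lineage range. The higher one was the dimmer CLDN4 probe set. At the adjusted threshold 0 passed, against 0.526% of all.

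**Figure D3:**
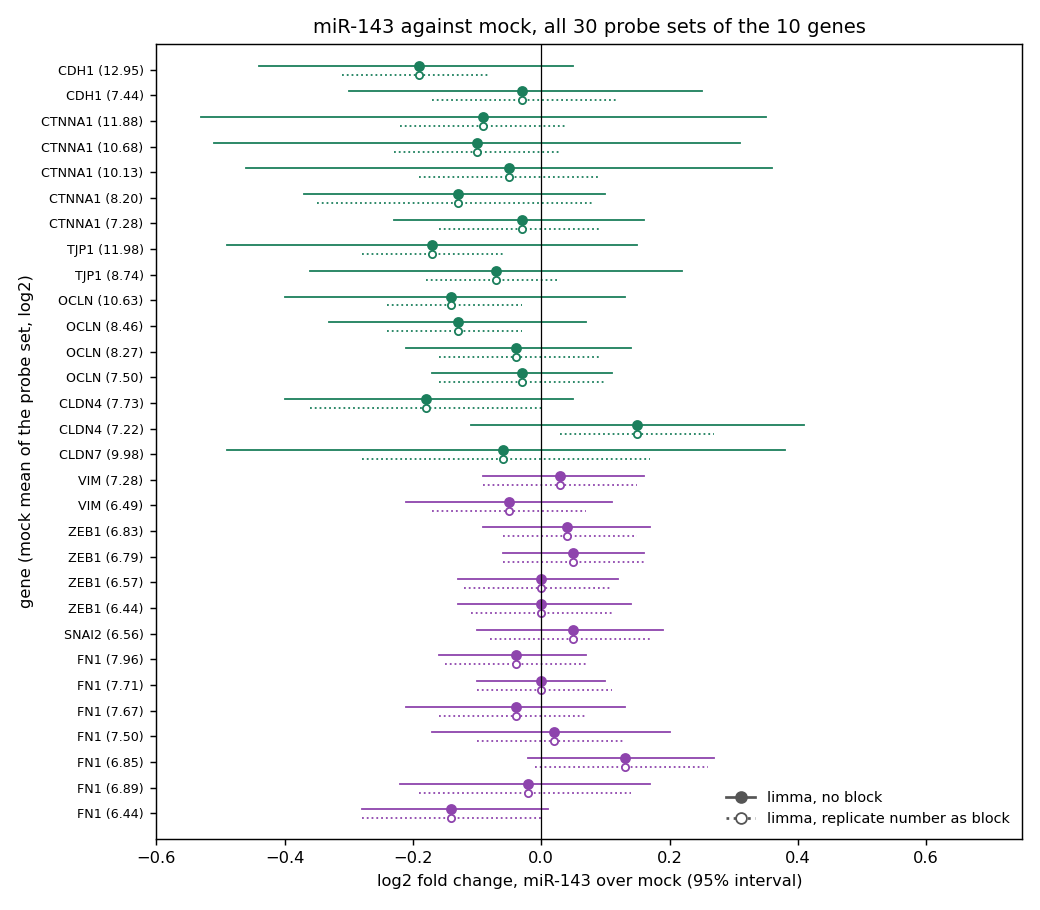
Log2 fold change (miR-143 over mock) of each of the 30 probe sets, named by gene with the mock mean in brackets, from limma without a block (filled points, solid lines) and with the replicate number as a block (open points, dotted lines). Lines are 95% intervals, green for junction and purple for transition genes. Every solid interval contains 0, 15 of 16 junction probe sets (of 6 genes) and 6 of 14 transition probe sets (of 4 genes) have a negative value, against 55.8% of all probe sets and 64.3% of genes above the median level.

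In the brightest probe sets of 5 junction genes replicate 4 differed from its own group by more than the group means differed. It exceeded the mean of replicates 1 to 3 by 0.68 (miR-143) and 0.54 (mock) for CTNNA1, 0.74 and 0.33 for CLDN7, 0.43 and 0.49 for TJP1, 0.36 and 0.31 for OCLN, and 0.28 and 0.38 for CDH1. These 5 were the members with replicate 4 highest in both groups, 50% of the 10, while 36.1% of all genes and 63.0% of the genes above the median level had that order. VIM (−0.04 and −0.06), ZEB1 (−0.12 and −0.13), SNAI2 (0.01 and −0.08) and FN1 (−0.02 and 0.10) had small differences. The part of replicate 4 in the fold changes was not tested.

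Without mock replicate 4 the log2 fold change of CDH1 was −0.099, of TJP1 −0.049 and of OCLN −0.059, all nearer to 0 than over 8 arrays, and those of CTNNA1 and CLDN7 turned positive, at 0.047 and 0.029. With both arrays of replicate 4 left out they were −0.168, −0.155 and −0.150 for CDH1, TJP1 and OCLN, and −0.124 and −0.156 for CTNNA1 and CLDN7. No member was called in any of these fits.

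**Figure D4:**
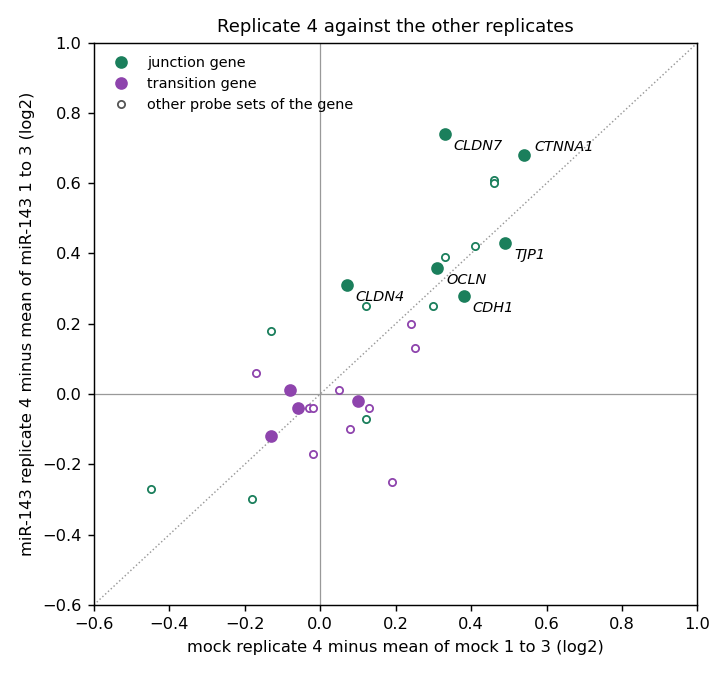
Replicate 4 minus the mean of replicates 1 to 3 (log2) in mock on the horizontal axis and in miR-143 on the vertical axis, one point per probe set, filled for the brightest probe set of a gene. The filled points of CTNNA1, CLDN7, TJP1, OCLN and CDH1 lie up to the right, from 0.28 to 0.74, and those of the 4 transition genes lie within 0.13 of 0. Open points spread wider, with a CTNNA1 probe set at −0.18 (mock) and −0.30 (miR-143) and FN1 probe sets at 0.24 and 0.20 and at 0.19 and −0.25.

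By the size of their difference in mean-centred values over the 8 arrays, the genes closest to CDH1 were ZDHHC13 (root-mean-square difference 0.0214 log2 units), CSTB (0.0280) and FHL2 (0.0281). Those closest to CTNNA1, the member of largest spread (SD 0.322 over 8 arrays), were SEPTIN2 (0.0386), LAMB3 (0.0396) and SCAF4 (0.0436). All 8 arrays enter these measures, replicate 4 included.

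Further junction genes were taken from lists. The adherens junction list had 18 measured genes, among them the catenins CTNNB1 and JUP and the nectins. With or without the block 0 were called, 7 had a negative log2 fold change, and the median was 0.017. Over all genes 55.6% were negative, with a median of −0.009. Of genes above the median level 64.3% were negative, with a median of −0.03. The actin crosslinker ACTN4 had the lowest p of the list, with a log2 fold change of 0.11 (adjusted p = 1 by limma). The desmosome list had 10 genes, of which 0 were called and 4 had a negative value (median 0.028). The plakin PPL, which links desmosomes to keratin filaments, differed by −0.18 on the log2 scale (adjusted p = 1 by limma, 0.197 with the block), while the desmosomal cadherins DSC2 and DSG3 and the plakophilin PKP2 differed by 0.09, 0.07 and 0.06 (adjusted p = 1 by limma for each).

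In the tight junction list 15 of 25 measured genes had a negative value (median −0.033). The negative share was 55.6% of all genes and 64.3% of those above the median level. Without the block 0 were called. With the block 1 was, PRKCI, the atypical protein kinase C of the polarity complex at tight junctions, where 0.623% of all genes were called lower. It read 10.06, 9.82, 9.65 and 10.61 with miR-143 and 10.31, 10.41, 10.06 and 11.20 in mock. The groups overlapped, replicate 4 was the highest array of each, and every miR-143 array lay below the mock array of the same number, by 0.25 to 0.60. Its log2 fold change was −0.46 (standard error 0.261 and adjusted p = 1 without the block, 0.0635 and 0.00688 with it, by limma). It was −0.23 without mock replicate 4, −0.656 without miR-143 replicate 4 and −0.421 without both. The call with the block ended without pair 2 or pair 4 (adjusted p = 0.0645 and 0.0634). Its other 2 probe sets had values of −0.12 and −0.11 and were not called with the block (adjusted p = 0.478 and 0.581 by limma), and the mean of all 3 gave −0.23 (adjusted p = 1 without the block).

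MARVELD2 (tricellulin), which seals the points where 3 cells meet and belongs to the same protein family as occludin, read 10.27, 10.21, 10.18 and 10.39 with miR-143 and 10.62, 10.43, 10.31 and 10.63 in mock. Only miR-143 replicate 4 reached into the range of mock. The difference of −0.24 on the log2 scale had an exact permutation p of 0.0571 (adjusted p = 1 by limma, 0.0713 with the block). At an unadjusted limma p under 0.05 it was the 1 gene of the list without the block, against 2.41% of all genes. With the block 4 genes were lower, PRKCI, MARVELD2 and CLDN2 among them, and 0 higher, against 6.92% and 2.64% of all genes. Of genes above the median level 12.4% were lower. CLDN2, a claudin that forms pores for cations, differed by −0.30 on the log2 scale (adjusted p = 1 by limma, 0.280 with the block).

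Among regulators and surface genes of epithelia 16 were measured and 0 were called, and 12 had a negative value (median −0.056). The negative share was 55.6% of all genes and 64.3% of those above the median level. At an unadjusted limma p under 0.05 there was 1 higher and 0 lower without the block, against 2.41% of all genes in either direction. With the block 6.92% of all genes and 12.4% of those above the median level were lower, and 2.64% of all were higher. In this list 5 were lower and 1 higher. Among the lower ones were CDS1 (−0.19 on the log2 scale, adjusted p = 0.257 with the block), which makes CDP-diacylglycerol, and the transcription factors ELF3 (−0.12, adjusted p = 0.415) and OVOL1 (−0.13, adjusted p = 0.491). The higher one in both fits was OVOL2, a repressor of transition genes such as ZEB1, which read 8.30, 8.33, 8.26 and 8.41 with miR-143 and 8.22, 8.16, 8.19 and 8.24 in mock. All 4 miR-143 arrays lay above every mock array, as in 0.719% of genes. The difference of 0.12 on the log2 scale had an exact permutation p of 0.0286, the smallest possible (adjusted p = 1 by limma, 0.436 with the block), and the mean over its 2 probe sets gave 0.01.

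Among 11 further transcription factors of the transition 0 were called and 5 were negative, with a median of 0.009. The negative share of all genes was 55.6%. TWIST1 averaged 6.36 and SNAI1 7.18 in mock, both within the range of silent genes. TCF4, a basic helix-loop-helix factor, was brighter, at 9.08 in mock, with a log2 fold change of −0.15 (adjusted p = 1 by limma, 0.285 with the block). In the mesenchymal list 23 genes were measured and 0 called, and 14 had a negative value (median −0.010). CDH2, the N-cadherin of mesenchymal and neural cells, averaged 7.28 in mock and 7.36 with miR-143, within the silent range. S100A4, a calcium-binding protein also called fibroblast-specific protein, read 10.41 in mock and 10.25 with miR-143 (adjusted p = 1 by limma, 0.465 with the block).

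Of 11 genes of TGF-beta signalling, a pathway known to induce the transition in many epithelia, 0 were called without the block. In this list 5 were negative, and the median was 0.063. The negative share was 55.6% of all genes and 64.3% of those above the median level. With the block SKI, a corepressor that restrains SMAD proteins, was called higher, where 0.167% of all genes were. It read 9.92, 10.02, 9.96 and 10.44 with miR-143 and 9.72, 9.62, 9.76 and 10.11 in mock, and mock replicate 4 lay above miR-143 replicates 1 to 3. Its log2 fold change was 0.28 (standard error 0.135 and adjusted p = 1 without the block, 0.0532 and 0.0385 with it, by limma). The call ended with any pair left out (adjusted p = 0.103 to 0.186), and its other probe sets had values of 0.30 and 0.02, with adjusted p-values of 0.133 and 0.957 with the block.

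E-boxes of the kind that ZEB1 and SNAI2 are known to bind were looked for as CACCTG, or CAGGTG, which is the same motif on the opposite strand, in windows from 250 bases before to 50 after RefSeq transcript starts. Windows were held for 8 members, without CDH1 and SNAI2. The motif was in 6 of 22 member windows (27.3%) and in 20.6% of all 35116 windows. The members that held it were OCLN, TJP1, CLDN7 and ZEB1, 4 of 8, against 24.1% of 27305 genes with it in any window. Members had from 1 window (CLDN4) to 7 (ZEB1). A gene with more windows has more places to hold the motif. The 8 members had 22 windows, while the 27305 genes had 35116, fewer per gene. The shares of genes are therefore not like for like, and the shares of windows are the closer comparison. CTNNA1, CLDN4, VIM and FN1 held none, and their brightest probe sets averaged 11.88, 7.73, 7.28 and 7.96 in mock. Those of OCLN, TJP1, CLDN7 and ZEB1, which held it, averaged 10.63, 11.98, 9.98 and 6.83. Whether a box bears on the level of a gene was not tested. The box nearest before a start is shown for each of the members that held it, in capitals, on the strand of the gene. On GRCh38.p14 they lie at chr5:69492505-69492528 (OCLN, plus strand, 33 bases before the start), chr15:29969123-29969146 (TJP1, minus strand, 88 bases), chr17:7262473-7262496 (CLDN7, minus strand, 9 bases) and chr10:31318351-31318374 (ZEB1, plus strand, 57 bases).
OCLN: tccgagtttCAGGTGaattggtca
TJP1: gccggcgcgCAGGTGgcccggcct
CLDN7: ggtgcgcccCACCTGtccgcccgc
ZEB1: aggtgacagCAGGTGagggccggg
A match is a run of letters and no measure of binding, which these arrays do not show.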

How the data were processed

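The deposited values are log2 RMA values, 1 per probe set and array, computed by the authors in the affy package per the labels (version not given in the sources used here), and were not normalized again. Platform symbols were updated through Entrez identifiers or RefSeq synonyms. Of 54675 probe sets 41091 carried 1 symbol, 1801 several, 11721 none and 62 were controls, and no probe set with several symbols named a member. The probe set of highest mean stood for each gene (19752 in all). Groups were compared with limma 3.58.1 in R 4.3.3 (lmFit and eBayes, two-sided, Benjamini-Hochberg over all genes or all probe sets, threshold 0.05). Python 3.11.15 and scipy 1.17.1 gave the exact permutation tests, and the code was tested on simulated data. The number of arrays limits the precision. The paper states 4 biological replicates per group.

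After group means were removed, arrays with the same number correlated at 0.109, 0.166, 0.576 and 0.808 over genes for replicates 1 to 4, above the limit of 0.1 set for pairs, and at 0.079, 0.108, 0.558 and 0.772 over probe sets, where replicate 1 misses it. What a number marks is not in the labels, and the pairing therefore rests on these correlations. In both groups replicate 4 lay apart on the first principal component, with replicates 1 to 3 on the other side. Correlations between arrays of different numbers were not computed. The values of 0.109 and 0.166 therefore do not show that replicates 1 and 2 are pairs, and fits with the block carry this limit. The members, gene lists and tests were chosen with earlier results of these data known. Genes eligible to be named beside the members were the 4 with the lowest p in a list, those called with the block and the 3 nearest patterns of 2 members. Not all of these are named. 19 alternatives were run.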

Additional observations from a re-analysis of the deposited data

Results flagged for a closer look

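Among the 60 groups of 4 arrays tested (30 probe sets, miR-143 and mock), 1 held an array far from the others by Dixon's ratio, where chance flags about 1 in 20. It was miR-143 replicate 1 of an FN1 probe set, at 7.68 against 7.72 in each of the other 3 arrays, a ratio of 0.939. The gap is small beside the spread of other probe sets.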

How the results depend on the processing

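No member was called under any of the 19 alternatives, and the lowest adjusted p by limma was 0.147, for CDH1 with the block and without replicate 2. VIM, ZEB1 and SNAI2 were not fitted under the alternative that kept only genes above the median level. Of 187 member values under these alternatives, 178 kept their sign. The 9 that turned belonged to CLDN7, CTNNA1 and VIM. With arrays or pairs left out CLDN7 ranged from −0.240 to 0.099 (0.037 and 0.055 with the block and without replicate 2 or 3), CTNNA1 from −0.258 to 0.047 and VIM from −0.014 to 0.062, and with the mean of its 2 probe sets VIM was −0.008. The cause was not tested. Leaving out arrays or pairs gave −0.264 to −0.099 for CDH1, −0.279 to −0.049 for TJP1, −0.228 to −0.059 for OCLN, −0.263 to −0.081 for CLDN4, −0.067 to −0.015 for FN1, 0.001 to 0.089 for SNAI2 and 0.010 to 0.074 for ZEB1. Over all genes 0 were called lower and 0 higher without the block, with 123 and 33 with the replicate block, 31 and 22 after cyclic loess, 36 and 20 with array weights, 30 and 13 without both arrays of replicate 4 (chosen after the data were seen), and 0 to 68 lower and 0 to 16 higher with arrays or pairs left out. The block without replicate 1, 2, 3 or 4 gave 57, 68, 33 and 42 lower and 16, 11, 9 and 16 higher. The fit with the block changed the call of PRKCI and SKI and of no member. Depth is not defined for arrays, and genes near the level of silent ones are limited by their low signal.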
